A study of Drosophila melanogaster with 9 samples.

Results

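The insulin and TOR (target of rapamycin) pathway was followed through 9 named genes, *InR*, *chico*, *foxo*, *Akt*, *Thor*, *S6k*, *Tsc1*, *gig* and *ImpL2*, in intestinal stem cell (ISC) preparations of the adult *Drosophila melanogaster* midgut. Members were taken by gene symbol, and 7 of the 9 were matched to a row among the 17481 genes of the table. *InR* and *S6k* were not analysed here. All 7 matched genes passed the filter on low values, as did 11493 genes in all.

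The series held 3 groups of 3 libraries. The *gro-RNAi* libraries came from guts with RNAi against *groucho* (*gro*), a transcriptional corepressor, and the *Notch-RNAi* libraries from guts with RNAi against *Notch* (*N*), the receptor whose activity sends ISC daughters towards the enterocyte fate. The control libraries carried the same Dl-Gal4 driver, UAS-GFP and temperature-sensitive Gal80 with no RNAi, and are labelled wild type. Flies of all groups were adults given as 5 to 7 days old, many midguts were pooled for each library, and GFP+ cells were collected by FACS. GFP and RNAi are both driven by Dl-Gal4, described in the methods as specific for ISCs. The RNA was amplified before sequencing. The aim stated for the series was to learn what loss of *gro* or of *Notch* does to transcription in ISCs.

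In flies, insulin-like peptides bind the insulin receptor InR, and its substrate Chico brings phosphatidylinositol 3-kinase (PI3K) to the membrane. The kinase Akt is activated there and phosphorylates Foxo, which is then kept out of the nucleus. Tsc1 and Gig (the fly Tsc2) form the complex that restrains the GTPase Rheb and through it TOR, the kinase that adjusts growth to nutrients. Thor is the fly 4E-BP, which binds the translation factor eIF4E until TOR phosphorylates it, and is a known transcriptional target of Foxo. ImpL2 is a secreted protein that binds insulin-like peptides and antagonises the pathway. In the midgut, insulin signalling is known to couple ISC division and growth to feeding, and loss of Tsc activity is known to make ISCs enlarge. Much of this control acts on phosphorylation and location of proteins, which mRNA levels do not measure.

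The values are FPKM, that is, fragment numbers divided by transcript length and by the total of mapped fragments. They keep no read totals, but the steps between low values gave estimated depths of 7360000 to 18100000 reads, with the *Notch-RNAi* libraries deepest. Behind the members stood an estimated 130 to 17000 reads per library, fewest for *Tsc1*. The targeted gene *gro* had 3.69, 13.8 and 9.53 FPKM in *gro-RNAi* libraries 1, 2 and 3, against 19.9, 27.8 and 15.3 FPKM in controls, without overlap (limma adjusted p = 0.094). *N* had 13.9, 16.1 and 9.78 FPKM in *Notch-RNAi* libraries, against 40.9, 36.9 and 28.5 FPKM in controls (limma adjusted p = 0.00242). Genes used as markers of other gut cell types were present beside those of ISCs. The summed FPKM of 13 enteroendocrine (EE) genes was 2216 to 5432 in *gro-RNAi*, 3598 to 3955 in *Notch-RNAi* and 1378 to 2850 in control libraries. For 5 enteroblast genes it was 2339 to 2543 in *gro-RNAi*, 243 to 402 in *Notch-RNAi* and 1511 to 1669 in control libraries. Most of the enteroblast sum came from E(spl) genes. *E(spl)malpha-BFM* averaged 1406 FPKM in *gro-RNAi*, 174 FPKM in *Notch-RNAi* and 830 FPKM in control libraries. In the same order, *E(spl)mbeta-HLH* averaged 598, 126 and 492 FPKM, and *E(spl)m3-HLH* 382, 24.9 and 234 FPKM. The paper describes these genes as also expressed in ISCs, and as lower there after *Notch* depletion. What share of the sum came from enteroblasts was not tested. The 4 matched ISC markers, *Delta* (*Dl*) among them, summed to 74.1 to 181 FPKM in *gro-RNAi*, 99.4 to 124 FPKM in *Notch-RNAi* and 40.2 to 112 FPKM in control libraries. These sums overlapped, but 3 of the 4 were called higher in both RNAi groups, beside 6.26% of all tested genes in *gro-RNAi* and 24.4% in *Notch-RNAi*. The remaining marker, *Sox21a*, averaged 56.1 FPKM in *gro-RNAi*, 52.0 FPKM in *Notch-RNAi* and 58.8 FPKM in control libraries. *Delta* itself averaged 42.0 FPKM in *gro-RNAi*, 46.7 FPKM in *Notch-RNAi* and 5.86 FPKM in control libraries (limma adjusted p = 0.00484 for *gro-RNAi* and 0.00106 for *Notch-RNAi*, each against control). Sums over enterocyte genes stayed between 156 and 856 FPKM, muscle genes reached 25.2 FPKM at most, and hemocyte and fat body genes 4.75 FPKM at most. In such bulk samples a change in how many cells of a type were present and a change in RNA per cell cannot be told apart, and how far cell makeup entered the results below was not tested.

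*Akt* was the single member that passed the test in any comparison. It was higher in all 3 *Notch-RNAi* libraries than in the other 6, by 2.37-fold against control, whereas its *gro-RNAi* and control values overlapped. *ImpL2* and *Thor* were also higher in every *Notch-RNAi* library than in any control library, but neither passed the test. *chico*, *Tsc1* and *gig*, the least abundant members, had limma estimates within 0.34 of 0 on the log2 scale in every comparison, and *foxo* varied widely among the control libraries.

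**Figure D1:**
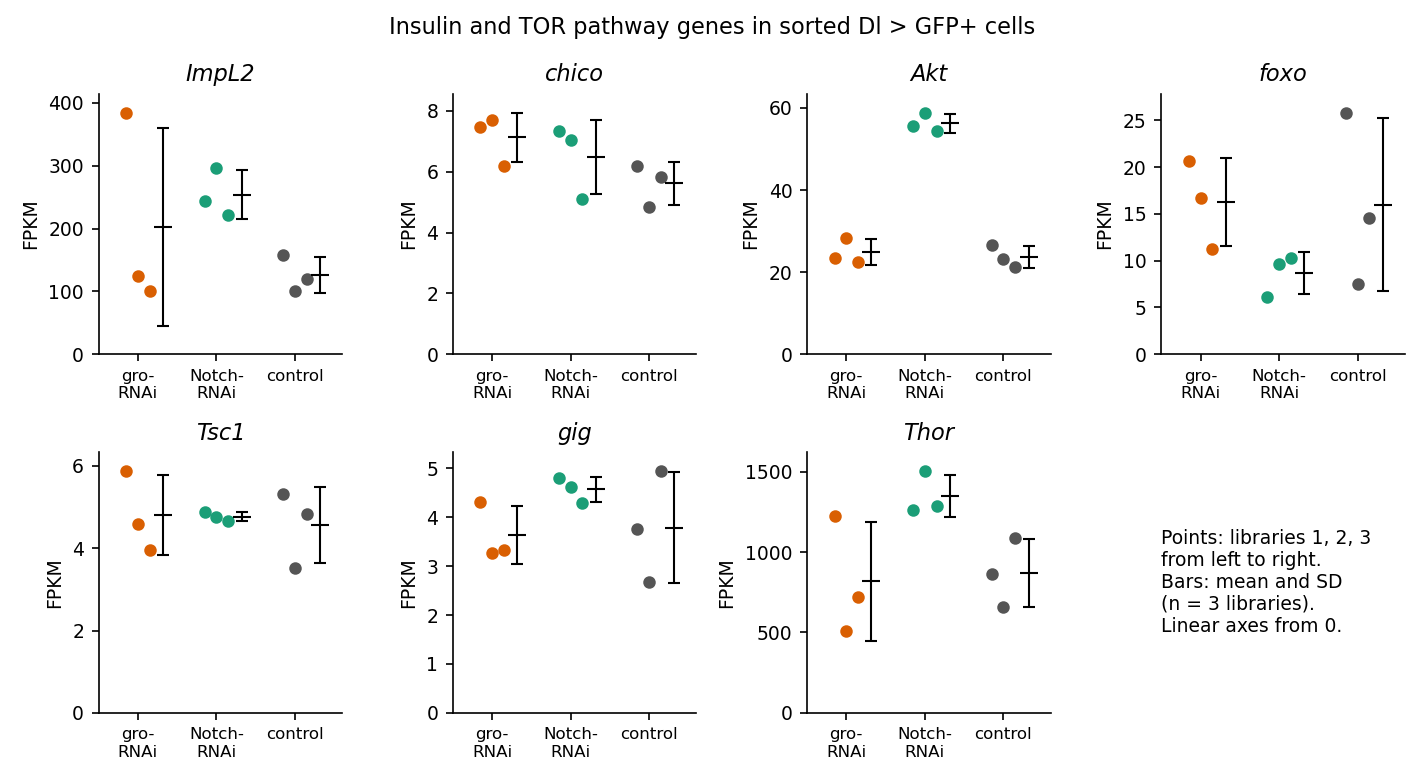
FPKM of the 7 measured insulin and TOR pathway genes (linear axes from 0) in *gro-RNAi*, *Notch-RNAi* and control libraries, with points for libraries 1, 2 and 3 from left to right and bars for the mean and SD (n = 3 libraries). *Akt* lies between 54.4 and 58.8 FPKM in *Notch-RNAi* libraries and between 21.3 and 28.4 FPKM in the other 6, while *ImpL2* in *gro-RNAi* and *foxo* in controls are spread over a wide range.

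The order of the mean levels was the same in the 3 groups: *Thor*, *ImpL2*, *Akt*, *foxo*, *chico*, *Tsc1*, *gig*. FPKM are scaled by transcript length, so such an order can be read, although uneven coverage after RNA amplification was not tested. *Thor* stood at the 98.5th, 98.9th and 98.6th percentile of the tested genes in *gro-RNAi*, *Notch-RNAi* and control cells, and *gig* at the 41.9th, 43.8th and 46.0th. The places of *Thor*, *ImpL2* and *Akt* were clear in both RNAi groups, where every library of each lay above every library of the next gene down. In controls *Akt* and *foxo* overlapped between libraries (21.3 to 26.5 FPKM and 7.48 to 25.8 FPKM), though *Akt* was the higher of the pair within each library. Neighbours that overlapped were *Tsc1* and *gig* in all groups, *foxo* and *chico* in *Notch-RNAi* cells and *chico* and *Tsc1* in controls.

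In *gro-RNAi* against control, limma called 0 of the 7 members (Benjamini-Hochberg adjusted p under 0.05; 0 also at an unadjusted p under 0.05), where 7.49% of all tested genes were called, 6.26% higher and 1.23% lower. In *Notch-RNAi* against control 1 of 7 (14.3%) was called, *Akt*, as higher, where 28.7% of all tested genes were called, 24.4% higher and 4.29% lower. When the RNAi groups were compared directly, 1 of 7 was called, again *Akt*, as lower in *gro-RNAi*, where 7.46% of all tested genes were called, 2.6% higher and 4.86% lower. The groups did not overlap for 1 member in *gro-RNAi* against control, where this held for 26.4% of all tested genes, for 3 members in *Notch-RNAi* against control (47.0%) and for 3 in the direct comparison (33.3%). Fold changes are on the scale log2(FPKM + 0.1). On this scale the median of all tested genes lay at 0.27, 0.46 and -0.18 in these comparisons, so the median gene was shifted, and the member medians were 0.08, 0.31 and -0.33. Both comparisons against control use the same 3 control libraries, so they are not independent of each other. Nothing in the labels says that the libraries of a group came from separate crosses, and the p-values measure the spread between these samples.

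**Figure D2:**
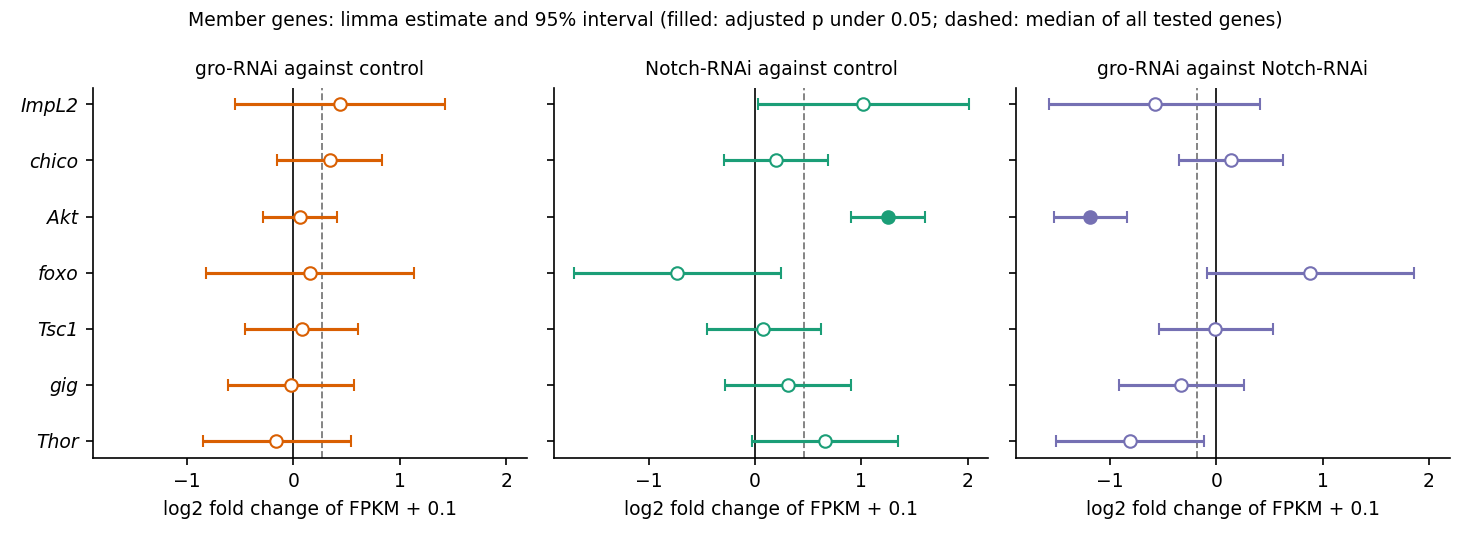
limma estimates (points) with 95% intervals (bars) for each member on the scale log2(FPKM + 0.1), with a panel for each pair of groups, filled points for an adjusted p under 0.05 and dashed lines at the median of all tested genes. Only *Akt* is filled, at 1.25 in *Notch-RNAi* against control and at -1.19 in *gro-RNAi* against *Notch-RNAi*.

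*ImpL2*, the secreted binding protein, lies on the minus strand of chromosome 3L (4224006 to 4236147, release 6, FBgn0001257) and overlaps *CG46460* on the same strand. Its FPKM were 384, 124 and 100 in *gro-RNAi* libraries 1, 2 and 3, 243, 297 and 222 in *Notch-RNAi* libraries, and 158, 101 and 120 in controls. All *Notch-RNAi* libraries were above all controls, while in *gro-RNAi* library 1 alone was high and the other pair lay at 124 and 100, close to the controls. Means were 203 ± 157 FPKM in *gro-RNAi*, 254 ± 38.7 FPKM in *Notch-RNAi* and 126 ± 29.1 FPKM in control cells (SD, n = 3 each). The log2 difference of *ImpL2* against control was 0.44 (SE 0.44, limma adjusted p = 0.572) in *gro-RNAi* and 1.02 (SE 0.44, adjusted p = 0.11) in *Notch-RNAi*. In a fit of the *Notch-RNAi* and control libraries alone, which leaves the wide *gro-RNAi* group out of the shared spread, the same difference had a limma adjusted p of 0.0176. Without moderation in those 6 libraries it was 0.0559, and with centred libraries the difference was 0.52 (adjusted p = 0.352), so *ImpL2* was called in 1 of 11 other settings.

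*gro-RNAi* library 1 also had the highest sums of the series for EE genes (5432 FPKM, against 2406 and 2216 FPKM in *gro-RNAi* libraries 2 and 3), ISC genes (181, against 101 and 74.1 FPKM) and enterocyte genes (856, against 236 and 334 FPKM). It was above both replicates for 11 of 13 EE, 4 of 4 ISC and 8 of 9 enterocyte genes. Below both were 2 EE genes, *AstA* (68.3, against 320.0 and 262 FPKM) and *Dh31* (17.2, against 54.3 and 40.9 FPKM). Of enteroblast, muscle, hemocyte and fat body genes, 2 of 5, 2 of 6, 2 of 6 and 3 of 6 were above both, and 0, 1, 1 and 2 below both. Its median over all tested genes was also higher (log2 2.825, against 2.589 and 2.492), and the share of all genes above both is not given. *gro* was lowest in it (3.69, against 13.8 and 9.53 FPKM). Without this library the log2 difference of *ImpL2* was -0.15 in *gro-RNAi* against control (limma adjusted p = 0.735), and -1.17 in *gro-RNAi* against *Notch-RNAi* (adjusted p = 0.0216), against -0.58 (SE 0.44, adjusted p = 0.43) with it. The part of these cell types in the *ImpL2* values was not tested.

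*chico*, the gene of the insulin receptor substrate, lies on the minus strand of 2L (10242512 to 10247078, FBgn0024248). Its FPKM were 7.48, 7.7 and 6.2 in *gro-RNAi* libraries, 7.34, 7.05 and 5.1 in *Notch-RNAi* libraries, and 6.18, 4.84 and 5.82 in controls. The lowest *gro-RNAi* library was barely above the highest control, and *Notch-RNAi* and control libraries overlapped. The log2 differences of *chico* against control were 0.34 (SE 0.22, limma adjusted p = 0.374) in *gro-RNAi* and 0.20 (SE 0.22, adjusted p = 0.526) in *Notch-RNAi*. Relative to the median gene these are 0.07 and -0.26. In *gro-RNAi* against *Notch-RNAi* the difference was 0.14 (adjusted p = 0.721). An antisense gene, *asRNA:CR44995*, overlaps *chico* and was listed at 28.5 to 57.6 FPKM. Whether the counting used strand is not given in the sources used here, so reads of the pair may be mixed.

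*Akt*, the kinase at the centre of the insulin branch, lies on the plus strand of 3R (16099228 to 16105670, FBgn0010379). Its FPKM were 23.5, 28.4 and 22.5 in *gro-RNAi* libraries, 55.5, 58.8 and 54.4 in *Notch-RNAi* libraries, and 26.5, 23.3 and 21.3 in controls. The *gro-RNAi* values were interleaved with the controls, and the lowest *Notch-RNAi* library was far above the highest of the other 6. Means were 24.8 ± 3.18 FPKM in *gro-RNAi*, 56.2 ± 2.27 FPKM in *Notch-RNAi* and 23.7 ± 2.62 FPKM in control cells (SD, n = 3 each). *Akt* rose 2.37-fold in *Notch-RNAi* against control (95% interval 1.86 to 3.02; log2 difference 1.25, SE 0.15, limma adjusted p = 0.00103), which is 0.79 on the log2 scale above the median gene. An exact two-sided permutation test gave p = 0.1, the smallest that 3 libraries against 3 allow.

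In *gro-RNAi* against control the log2 difference of *Akt* was 0.06 (SE 0.15, limma adjusted p = 0.851), with a 95% interval of -0.29 to 0.41 that leaves room for changes of up to 1.33-fold. Compared directly, *Akt* was lower in *gro-RNAi* than in *Notch-RNAi* cells, at 0.44 of its level (95% interval 0.35 to 0.56; log2 difference -1.19, SE 0.15, limma adjusted p = 0.00436). The calls of *Akt* held in all 11 other settings and with each library left out, in *Notch-RNAi* against control (log2 difference 0.74 to 1.54) and in *gro-RNAi* against *Notch-RNAi* (-1.29 to -1.05). The smallest rise, 0.74 (adjusted p = 0.0153), came when every library was centred on the same median. In *Notch-RNAi* against control 6 of 13 EE genes were called higher and 3 lower, beside 24.4% and 4.29% of all tested genes. The part of cell makeup in the *Akt* rise was not tested.

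*foxo*, whose product Akt restrains, lies on the plus strand of 3R (14056945 to 14087978, FBgn0038197). Its FPKM were 20.7, 16.7 and 11.3 in *gro-RNAi* libraries, 6.14, 9.65 and 10.3 in *Notch-RNAi* libraries, and 25.8, 7.48 and 14.6 in controls. Every *gro-RNAi* library was above every *Notch-RNAi* library, and the controls, with a coefficient of variation of 58.0%, reached across both groups. The log2 difference of *foxo* was 0.16 (SE 0.43, limma adjusted p = 0.865) against control in *gro-RNAi* and -0.73 (SE 0.43, adjusted p = 0.235) in *Notch-RNAi*. Directly compared, *gro-RNAi* minus *Notch-RNAi* was 0.88 (SE 0.43, adjusted p = 0.232). Relative to the median gene *foxo* was lower by more in *Notch-RNAi* cells: with libraries centred on the same median its log2 difference against control was -1.23, with an adjusted p of 0.0498. Without control library 1, the highest for *foxo*, the uncentred difference was -0.29 (adjusted p = 0.6). Over all left-out libraries it ranged from -1.18 to -0.29, with a lowest limma adjusted p of 0.0553.

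*Tsc1* and *gig*, which encode the 2 subunits of the Tsc complex, lie on the plus strands of 3R (24130307 to 24134654, FBgn0026317) and 3L (20129181 to 20139010, FBgn0005198). *Tsc1* had 5.87, 4.6 and 3.95 FPKM in *gro-RNAi* libraries, 4.88, 4.77 and 4.65 FPKM in *Notch-RNAi* libraries, and 5.31, 3.53 and 4.83 FPKM in controls. *gig* had 4.32, 3.26 and 3.34 FPKM in *gro-RNAi*, 4.8, 4.62 and 4.3 FPKM in *Notch-RNAi*, and 3.75, 2.67 and 4.94 FPKM in control libraries. For each gene both RNAi groups overlapped the controls, and *Notch-RNAi* libraries were the most alike among themselves.

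The log2 differences of *Tsc1* were 0.08 (SE 0.24, limma adjusted p = 0.88) in *gro-RNAi* against control and 0.08 (SE 0.24, adjusted p = 0.818) in *Notch-RNAi* against control, with 95% intervals of -0.46 to 0.61 and -0.45 to 0.62. Those of *gig* were -0.02 (SE 0.26, adjusted p = 0.978) and 0.31 (SE 0.26, adjusted p = 0.406), with intervals of -0.62 to 0.57 and -0.28 to 0.90. On the fold scale, intervals in *gro-RNAi* against control were 0.73 to 1.53 for *Tsc1* and 0.65 to 1.48 for *gig*, which leaves room for changes within them. Between *gro-RNAi* and *Notch-RNAi* the log2 differences were -0.01 for *Tsc1* (adjusted p = 0.992) and -0.33 for *gig* (adjusted p = 0.454). *obst-J* and *CG7335*, which overlap *gig* on the other strand, were at 0 to 0.0916 FPKM and at 0.

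*Thor*, the translational repressor 4E-BP, lies on the plus strand of 2L (3478434 to 3479612, FBgn0261560). Its FPKM were 1225, 509 and 720 in *gro-RNAi* libraries, 1266, 1504 and 1285 in *Notch-RNAi* libraries, and 865, 659 and 1088 in controls. The *Notch-RNAi* libraries were the 3 highest of the 9, and *gro-RNAi* library 1, which was also high for *ImpL2*, came next. Means were 818 ± 368 FPKM in *gro-RNAi*, 1352 ± 133 FPKM in *Notch-RNAi* and 871 ± 215 FPKM in control cells (SD, n = 3 each). The log2 difference of *Thor* against control was -0.16 (SE 0.31, limma adjusted p = 0.798) in *gro-RNAi* and 0.66 (SE 0.31, adjusted p = 0.137) in *Notch-RNAi*. In *gro-RNAi* against *Notch-RNAi* it was -0.81 (SE 0.31, adjusted p = 0.136), and -1.15 (adjusted p = 0.0293) without *gro-RNAi* library 1. Relative to the median gene, *Thor* in *Notch-RNAi* against control was 0.20 above.

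**Figure D3:**
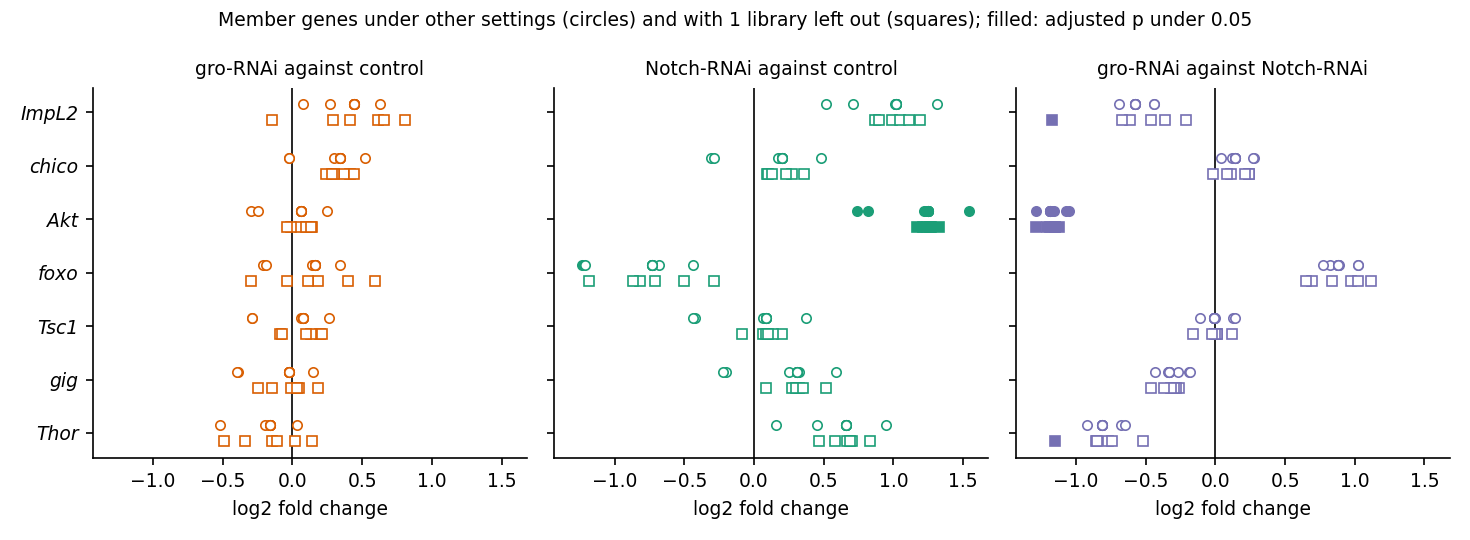
Log2 difference of each member in the 3 comparisons under 11 other settings (circles) and with 1 library left out (squares), filled where the limma adjusted p is under 0.05. *Akt* stays filled throughout in both comparisons that involve *Notch-RNAi*, between 0.74 and 1.54 against control, while *Tsc1* falls on both sides of 0 in every comparison.

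The other genes of the pathway were read from a list of 61, of which 59 were matched and 55 passed the filter on low values. In *gro-RNAi* against control 2 of the 55 rose, *path* and *Nup44A*, and 0 fell (3.64% called, against 7.49% of all tested genes). In *Notch-RNAi* against control 14 rose and 5 fell (34.5%, against 28.7%), and in *gro-RNAi* against *Notch-RNAi* 3 were higher and 2 lower (9.09%, against 7.46%). Their median log2 differences were 0.15, 0.43 and -0.19, beside 0.27, 0.46 and -0.18 for all tested genes. The direction of the calls depended on the scaling. With libraries centred on the same median, 2 rose and 7 fell in *Notch-RNAi* against control. Of the 14 rises on the deposited scale 2 were kept, *Sin1* and *Nup44A*, and all 5 falls were kept. Under quantile normalization 2 rose and 6 fell, with the same 2 rises, and after rescaling to the same FPKM sum 16 rose and 1 fell. In *gro-RNAi* against control centring left 0 rises and 1 fall, of *Atg1*. In *Notch-RNAi* against control, leaving out *Notch-RNAi* library 1 brought the count of 19 to 5, leaving out *Notch-RNAi* library 2 to 7, and leaving out control library 2 to 11.

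**Figure D4:**
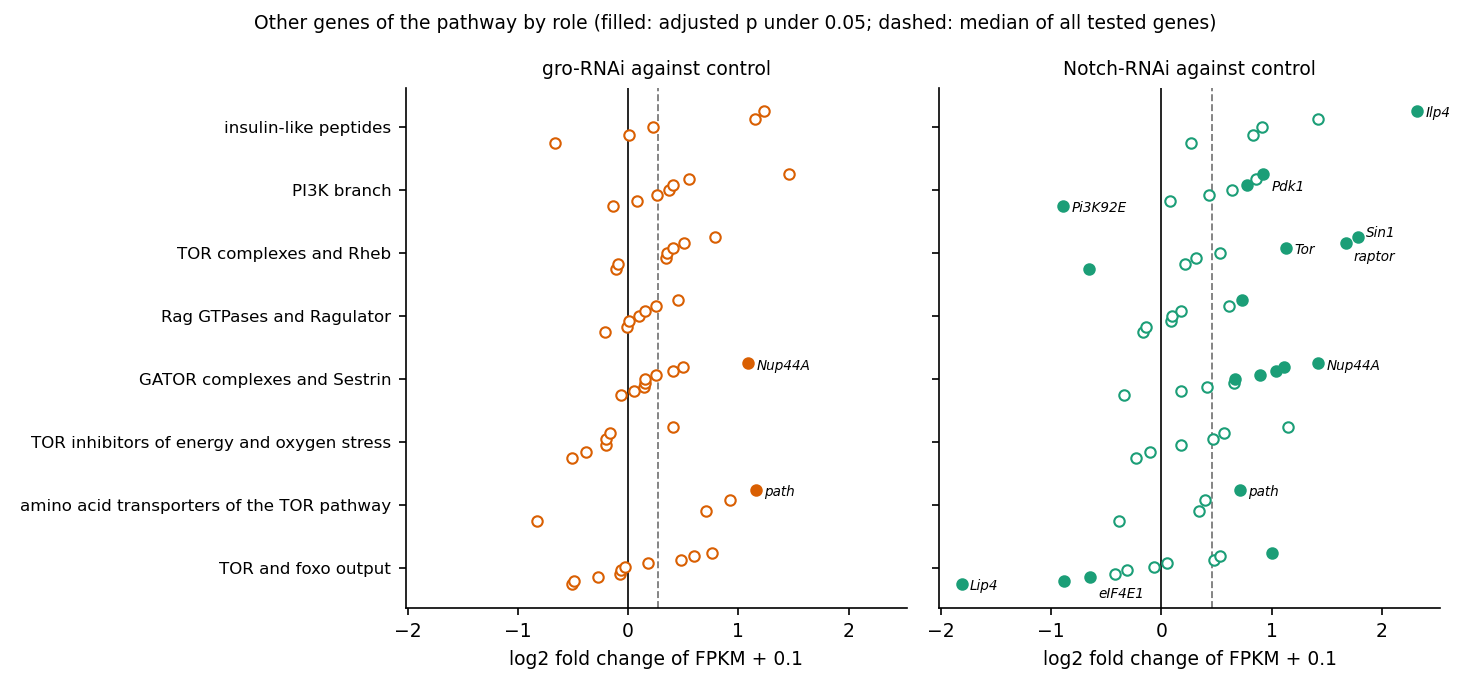
Log2 difference (log2(FPKM + 0.1) scale) of the 55 other tested pathway genes, grouped by role, for *gro-RNAi* (left) and *Notch-RNAi* (right), each against control, with filled points for a limma adjusted p under 0.05 and dashed lines at the median of all tested genes, 0.27 and 0.46. On the left 2 points are filled and on the right 19, with *Ilp4* farthest up and *Lip4* farthest down.

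Upstream of the members, 5 insulin-like peptide genes passed the filter, all at low levels. *Ilp4* had 1, 0 and 2 estimated reads in *gro-RNAi* libraries, 20, 16 and 6 in *Notch-RNAi* libraries, and 2, 1 and 0 in controls, and was called as higher in *Notch-RNAi* than in control (limma adjusted p = 0.0384). The call of *Ilp4* was lost in 6 of 10 other settings. Among these were a pseudocount of 0.01 (limma adjusted p = 0.109), no filter on low values (0.0555) and centred libraries (0.102). It was also lost without control library 2 or 3 or *Notch-RNAi* library 1 or 2 (0.0785 to 0.133). *Ilp7* was at 4.74 FPKM (66 estimated reads) in *gro-RNAi* library 1 and at 0 in the other pair of that group. It was at 0.277 to 0.382 FPKM in *Notch-RNAi* and at most 0.0977 FPKM in control libraries. *Ilp7* was named after its values were seen, and the library is the same one that stood out for *ImpL2* and was the highest of its group for *Thor*.

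In the PI3K branch 2 of 7 genes rose in *Notch-RNAi* against control (*dock* and *Pdk1*) and *Pi3K92E* fell, beside 24.4% of all tested genes called higher and 4.29% lower. *Pi3K92E*, the catalytic subunit, had 31.2, 29.9 and 27 FPKM in *gro-RNAi* libraries, 13.8, 13.9 and 17.2 FPKM in *Notch-RNAi* libraries, and 39, 27.1 and 20.1 FPKM in controls. *Notch-RNAi* and control libraries did not overlap (log2 difference -0.89, SE 0.24, limma adjusted p = 0.0223), though the control values were uneven. The call was lost without control library 2 (adjusted p = 0.0518) or *Notch-RNAi* library 1 or 2 (0.0836 and 0.0808). It was also lost in 3 of 11 other settings, rescaling to TPM (0.157) among them. All *gro-RNAi* libraries were above the *Notch-RNAi* values (0.97, SE 0.24, adjusted p = 0.0404). This call was lost when any of these 6 libraries was left out (0.0582 to 0.16), and in 5 of 11 other settings.

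*Pdk1*, which encodes a kinase that phosphorylates Akt, had 43.2, 48.8 and 38.4 FPKM in *Notch-RNAi* libraries, against 30.2, 19.3 and 20.4 FPKM in controls (log2 difference 0.92, SE 0.22, limma adjusted p = 0.0143). All *Notch-RNAi* libraries were above all controls for *Pdk1*. Its rise was not called in 3 of 11 other settings, centred libraries among them (0.42, adjusted p = 0.11). Nor was it called without *Notch-RNAi* library 1 or 2 (adjusted p = 0.055 and 0.0622). *Pi3K92E*, *Pdk1*, *Tor*, *raptor* and *eIF4E1* were chosen for description after their values were seen.

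Among 7 genes of the TOR complexes and Rheb, *Tor*, *raptor* and *Sin1* rose in *Notch-RNAi* against control and *Tctp* fell, beside the same 24.4% and 4.29%. *Sin1*, a subunit of TOR complex 2, which phosphorylates Akt, had 3.1, 1.83 and 1.71 FPKM in *gro-RNAi* libraries, 6.44, 6.18 and 5.15 FPKM in *Notch-RNAi* libraries, and 1.48, 1.77 and 1.71 FPKM in controls. All *Notch-RNAi* libraries were far above both other groups (log2 difference against control 1.78, SE 0.28, limma adjusted p = 0.00268). *Sin1* was also lower in *gro-RNAi* than in *Notch-RNAi* cells (-1.43, SE 0.28, adjusted p = 0.0209), a call lost without library 2 or 3 of *gro-RNAi* or library 1 or 2 of *Notch-RNAi* (0.0688 to 0.109). With centred libraries its rise against control was 1.27 (adjusted p = 0.00808).

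*Tor* had 4.02, 4.21 and 3.84 FPKM in *Notch-RNAi* libraries, against 1.36, 2.08 and 1.99 FPKM in controls (log2 difference 1.13, SE 0.25, limma adjusted p = 0.0101). *raptor*, the subunit that defines TOR complex 1, was low, at 2.3, 3.08 and 1.3 FPKM in *Notch-RNAi* libraries, against 0.662, 0.819 and 0.371 FPKM in controls (1.67, SE 0.40, adjusted p = 0.0158). For both genes the groups did not overlap, but the call of *raptor* was lost without *Notch-RNAi* library 1 or 2 (adjusted p = 0.0652 and 0.0665). With centred libraries neither gene was called (*Tor* 0.63, adjusted p = 0.135, and *raptor* 1.17, adjusted p = 0.0785). Over 11 other settings the call of *Tor* was lost in 2 and that of *raptor* in 3. The other subunit particular to TOR complex 2, *rictor*, was at 9.46 to 10.1 FPKM in *Notch-RNAi* and 6.45 to 9.29 FPKM in control libraries and was not called.

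In the branch that reports amino acids to TOR, 5 of 9 genes of the GATOR complexes and Sestrin rose in *Notch-RNAi* against control (*Iml1*, *mio*, *Nup44A*, *Sesn* and *Samtor*) and none fell, beside 24.4% of all tested genes called higher, and with centred libraries *Nup44A* alone of the 5 was called. In the same comparison 1 of 7 Rag GTPase and Ragulator genes (*Lamtor2*) and 1 of 4 amino acid transporter genes (*path*) rose, 14.3% and 25.0%, which is no more than about that share. The list holds activators and inhibitors of TOR alike: *mio* and *Nup44A* encode GATOR2 proteins, which favour TOR activity, whereas *Iml1*, *Sesn* and *Samtor* encode proteins that restrain it. Of the 6 genes of energy and oxygen stress none was called in *Notch-RNAi* against control on the deposited scale. *AMPKalpha* was called lower there with centred libraries and under quantile normalization, and *scyl* higher after rescaling to TPM.

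*Nup44A* and *path* were called in both comparisons against control, which share their controls. *Nup44A* had 31.6, 50.8 and 37.1 FPKM in *gro-RNAi* libraries, 48.6, 53.7 and 45.4 FPKM in *Notch-RNAi* libraries, and 15.9, 19.3 and 19.9 FPKM in controls. Its log2 difference was 1.09 (SE 0.20, limma adjusted p = 0.0146) in *gro-RNAi* and 1.42 (SE 0.20, adjusted p = 0.00171) in *Notch-RNAi*. Centred, *Nup44A* was called in *Notch-RNAi* (0.91, adjusted p = 0.0288) but not in *gro-RNAi* (0.73, adjusted p = 0.13). Its *gro-RNAi* call was lost in 4 of 11 other settings, also under quantile normalization (0.107) and with only the 6 libraries compared (0.0733).

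*path*, an amino acid transporter gene known to promote growth through TOR, had 311, 334 and 224 FPKM in *gro-RNAi* libraries, 201, 213 and 213 FPKM in *Notch-RNAi* libraries, and 180, 99.8 and 115 FPKM in controls. All 6 RNAi libraries were above all controls, and the *gro-RNAi* libraries were the highest. Its log2 difference was 1.16 (SE 0.23, limma adjusted p = 0.0222) in *gro-RNAi* and 0.71 (SE 0.23, adjusted p = 0.049) in *Notch-RNAi*. The *gro-RNAi* call of *path* was lost when control library 2 or 3 or *gro-RNAi* library 1 or 2 was left out (adjusted p 0.0585 to 0.0798). It was also lost in 3 of 11 other settings, centred libraries among them (0.80, adjusted p = 0.0545). The *Notch-RNAi* call, near the threshold, was lost in 9 of 11 other settings, with a difference of 0.21 (adjusted p = 0.502) when centred.

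Downstream, 1 of 10 output genes rose in *Notch-RNAi* against control (*Mitf*) and 3 fell (*eIF4E1*, *CRTC* and *Lip4*), beside 24.4% of all tested genes called higher and 4.29% lower. *Lip4*, a lipase gene known as a Foxo target, had 16.8, 12.6 and 16.1 FPKM in *gro-RNAi* libraries, 2.1, 5.78 and 6.5 FPKM in *Notch-RNAi* libraries, and 18.9, 15.3 and 12.6 FPKM in controls. *Notch-RNAi* libraries were well below controls (log2 difference -1.81, SE 0.39, limma adjusted p = 0.00998), and *gro-RNAi* libraries overlapped the controls and lay above *Notch-RNAi* (1.78, SE 0.39, adjusted p = 0.0308). This last call was lost when any of the 6 libraries other than *Notch-RNAi* library 3 was left out (adjusted p 0.0578 to 0.0887). Over 11 other settings it was lost in 4, and the call of *Lip4* against control in 1.

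*eIF4E1*, which encodes the main cap-binding translation factor and partner of Thor, had 322, 358 and 377 FPKM in *gro-RNAi* libraries, 216, 150 and 238 FPKM in *Notch-RNAi* libraries, and 327, 323 and 283 FPKM in controls. The *Notch-RNAi* libraries were below all others, both against control (log2 difference -0.65, SE 0.18, limma adjusted p = 0.0278) and beside *gro-RNAi* (*gro-RNAi* minus *Notch-RNAi* 0.83, SE 0.18, adjusted p = 0.0314). The fall of *eIF4E1* grew when libraries were centred (-1.16, adjusted p = 0.0108). It was not called in 4 of 11 other settings, among them rescaling to the same FPKM sum (-0.36, adjusted p = 0.204). Nor was it called without control library 1 or 2 or *Notch-RNAi* library 1 or 2 (adjusted p 0.0638 to 0.0701). The call between the RNAi groups was lost without library 2 or 3 of *gro-RNAi* or library 1 or 2 of *Notch-RNAi* (0.0872 to 0.104). It was also lost in 5 of 11 other settings.

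Ratios of a pair of genes within a library do not depend on a common scaling of that library, and were formed after the values were seen, so they are given with no test. *Thor* over *eIF4E1* was 3.8, 1.42 and 1.91 in *gro-RNAi* libraries, 5.87, 10.0 and 5.41 in *Notch-RNAi* libraries, and 2.64, 2.04 and 3.84 in controls. The ratio was higher in every *Notch-RNAi* library than in any other, by 2.49-fold against control in geometric means. *Pi3K92E* over *Pi3K21B*, the catalytic over the regulatory subunit of PI3K, was 0.771, 0.773 and 0.999 in *gro-RNAi* libraries, 0.368, 0.277 and 0.481 in *Notch-RNAi* libraries, and 0.833, 0.931 and 0.486 in controls. It was lower in *Notch-RNAi* than in control (0.51-fold), with library 3 of each almost level.

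*gig* over *Tsc1* was 0.737, 0.709 and 0.845 in *gro-RNAi*, 0.984, 0.968 and 0.924 in *Notch-RNAi* and 0.707, 0.756 and 1.02 in control libraries, and overlapped in both comparisons against control. *Akt* over *Pdk1* was 0.743, 0.987 and 1.0 in *gro-RNAi*, 1.29, 1.21 and 1.42 in *Notch-RNAi* and 0.877, 1.21 and 1.05 in control libraries. This ratio was 1.25-fold in *Notch-RNAi* against control in geometric means, and both RNAi groups overlapped the controls. It was lower in every *gro-RNAi* library than in any *Notch-RNAi* library (0.69-fold).

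**Figure D5:**
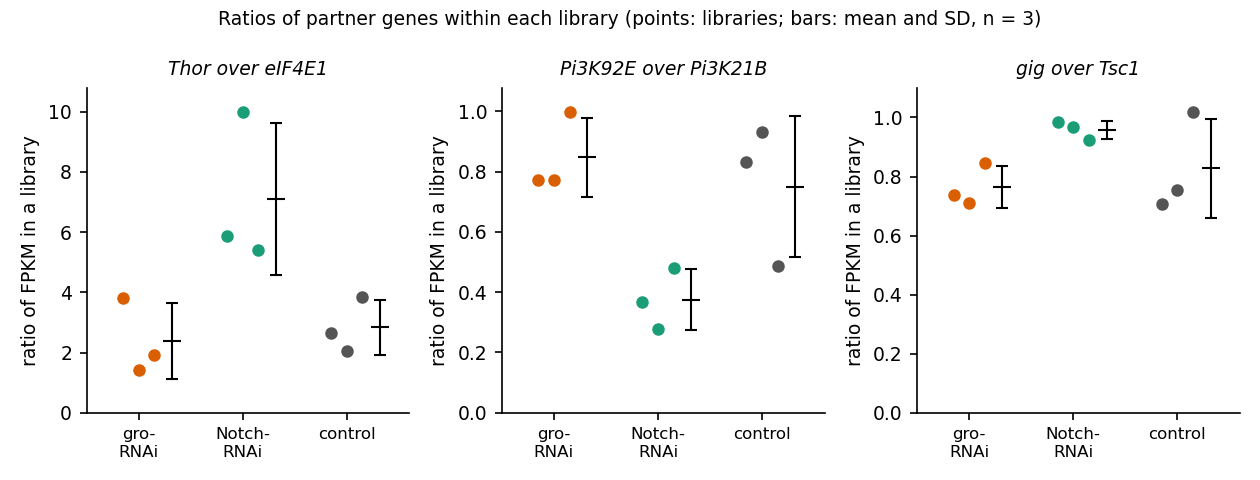
Ratio of FPKM within each library (linear axes from 0) for *Thor* over *eIF4E1*, *Pi3K92E* over *Pi3K21B* and *gig* over *Tsc1* in *gro-RNAi*, *Notch-RNAi* and control libraries, with points for libraries and bars for the mean and SD (n = 3). *Thor* over *eIF4E1* is at 5.41 or more in the *Notch-RNAi* libraries and at 3.84 or less in the other 6, and *gig* over *Tsc1* overlaps the controls in both RNAi groups.

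*Akt* had the widest range of group means among the members, 1.25 on the log2 scale. The genes most like it over the 9 libraries, among 8522 with a mean of at least 1 FPKM, were *Lsd-1* (Pearson r = 0.983), *snoRNA:Psi18S-525h* (r = 0.98) and *mir-2493* (r = 0.98). All 3 reached that mean through the *Notch-RNAi* libraries, where *Akt* too is high, so the likeness describes that difference and is no separate result. *Lsd-1*, which encodes a perilipin of lipid droplets, was at 0.371, 1.09 and 0.548 FPKM in *gro-RNAi* libraries, 7.42, 7.44 and 5.37 FPKM in *Notch-RNAi* libraries, and 0.535, 0.341 and 0.146 FPKM in controls. The small RNA genes were listed at 0 in all *gro-RNAi* and control libraries, and *Notch-RNAi* libraries were also the deepest. In *Notch-RNAi* libraries 1, 2 and 3 *snoRNA:Psi18S-525h* had 11.5, 12.5 and 10.8 FPKM, and *mir-2493* 44.2, 48.1 and 41.4 FPKM. Both were highest in the shallowest of these libraries and lowest in the deepest, as the same read number in each would give. Few reads may therefore stand behind them. In all, 37 genes had r above 0.95 with *Akt*.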

How the data were processed

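RNA-seq covered 9 libraries of FACS-sorted Dl > GFP+ midgut cells in 3 groups. The authors sequenced amplified RNA on an Illumina GA II. The authors deposited 1 table of FPKM for 17481 genes. Per the submitters' processing notes, STAR 2.5.2b and genome build BDGP6 were used, and the counting tool and further scaling are not given in the sources used here. Symbols and positions came from Ensembl release 115 (17176 genes with a symbol, 305 without), which need not be the authors' annotation. Libraries were grouped by their labels, and none held the same values as another.

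Depth was estimated from the whole-read steps of values worth at most 5 reads on genes of 1500 nt or longer, of which 90.6% to 94.7% lay within 0.2 of a whole read. Read numbers cover counting error only, because amplification copies molecules. The test was limma 3.58.1 in R 4.3.3 (lmFit, eBayes with trend) on log2(FPKM + 0.1), in 1 fit over the 9 libraries, for the 11493 genes whose mean reached 0.1 FPKM, with Benjamini-Hochberg adjustment over all of them and a threshold of 0.05. It was tested on simulated data. Joins, tables and plots were made with Python 3.11.15 (numpy 2.4.6, pandas 2.3.3, matplotlib 3.10.9, scipy 1.17.1).

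Members and lists were chosen with earlier results of these data known. All members are named, with the 3 called pathway genes of largest change per comparison with control, any called in opposite directions (0 were), and the 3 genes most like the member whose group means differed most. The alternatives changed the pseudocount (1 or 0.01), the filter (1 FPKM or none), the scaling (centred on a common median, quantile normalized or rescaled to TPM), the prior variance (1 for all genes), the libraries fitted (only the 6 compared, with or without moderation, or leaving out each library) or added a replicate block. Imaging and qRT-PCR were not analysed here, and 1 gene of the pathway is not reported here.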

Additional observations from a re-analysis of the deposited data

Results flagged for a closer look

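The change of *Akt* differed between the RNAi groups by a direct test. Its log2 difference in *gro-RNAi* against *Notch-RNAi* was -1.19 (SE 0.15, limma adjusted p = 0.00436), with 24.8 ± 3.18 FPKM in *gro-RNAi* and 56.2 ± 2.27 FPKM in *Notch-RNAi* cells (SD, n = 3 libraries each) and all 3 *gro-RNAi* libraries below all 3 *Notch-RNAi* libraries.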

How the results depend on the processing

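*Akt* kept its direction and its call in both comparisons with *Notch-RNAi* libraries under every alternative, whereas the directions of *chico*, *Tsc1* and *gig* depended on the scaling. In *gro-RNAi* against control the directions of *Akt*, *foxo* and *Thor* depended on it too. With libraries centred on a common median, 521 genes were called in *gro-RNAi* against control (212 higher and 309 lower, against 720 and 141 as deposited) and 2252 in *Notch-RNAi* against control (958 and 1294, against 2806 and 493), with 2 members (*Akt* and *foxo*) and 9 other pathway genes in *Notch-RNAi* and 1 other pathway gene in *gro-RNAi*. Differences turned to -0.025 for *chico*, -0.3 for *Akt*, -0.21 for *foxo* and -0.29 for *Tsc1* in *gro-RNAi* against control, to -0.31 for *chico*, -0.42 for *Tsc1* and -0.2 for *gig* in *Notch-RNAi* against control, and to 0.13 for *Tsc1* between the RNAi groups, where the split was 436 higher and 422 lower (299 and 558 as deposited). Quantile normalization gave 450 genes (233 and 217) and 1 other pathway gene in *gro-RNAi*, 1067 higher and 1161 lower and 8 other pathway genes in *Notch-RNAi*, and 512 and 410 between the RNAi groups. For the same members in the same order the values were -0.028, -0.25, -0.19 and -0.29, then -0.29, -0.44 and -0.22, then 0.14. Rescaled to TPM, *gig* was at 0.15 and *Thor* at 0.031 in *gro-RNAi* against control, the split between the RNAi groups was 146 and 474, and 2 other pathway genes were called there.

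With only the 6 libraries compared, 194 genes and 0 other pathway genes were called in *gro-RNAi* against control, 2 members in *Notch-RNAi* against control, and 3 other pathway genes between the RNAi groups. Without moderation as well, 60, 2001 and 190 genes and 0, 7 and 1 other pathway genes were called in the 3 comparisons, and 1 prior variance gave 3 other pathway genes in the last. The replicate numbers did not pair the libraries (correlations of -0.046 to 0.072 over 9 same-numbered pairs, none over 0.1). A replicate block gave 539 genes in *gro-RNAi* against control, and 536 genes and 3 other pathway genes between the RNAi groups, and changed no call of a member.

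Leaving out each library gave 313 to 865, 1561 to 2879 and 137 to 1164 called genes, 1 to 4, 5 to 18 and 0 to 5 other pathway genes, and 1 to 3 members in the last comparison (3 without *gro-RNAi* library 1). In *gro-RNAi* against control the ranges were -0.15 to 0.81 for *ImpL2*, -0.041 to 0.14 for *Akt*, -0.3 to 0.59 for *foxo*, -0.092 to 0.21 for *Tsc1*, -0.25 to 0.18 for *gig* and -0.49 to 0.14 for *Thor*. *Tsc1* ranged over -0.085 to 0.2 in *Notch-RNAi* against control and -0.16 to 0.12 between the RNAi groups, where *chico* ranged over -0.02 to 0.24. The causes were not tested. Depth limits genes with few reads, such as *Ilp4* with 0 to 2 estimated reads in controls.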
